A study of Mus musculus with 2 samples.

Results

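The maps below cover a pair of imprinted gene domains of the mouse in Th2 cells, a subset of helper T cells known for making interleukin 4. The members were all 1-kb bins of 2 fixed stretches of the mm9 genome: 940 bins on chromosome 7, from 149740001 to 150680000, and 360 bins on chromosome 12, from 110660001 to 111020000. Together they were 1300 bins, set against 2246042 bins of the genome with at least 1 read. The stretches were set by position, and they were chosen with earlier results of these data known. Of the 1300 bins, 1247 held a read, and the other 53 were empty in both libraries. The study made 2 libraries by chromatin immunoprecipitation with sequencing (ChIP-seq). One came from an anti-H3KAc antibody, which recognises histone H3 acetylated on lysines, a feature of active chromatin, and the other from non-specific polyclonal rabbit IgG, the background. Both were from CD4+CD62L+ splenocytes of C57BL/6 mice that had been activated through CD3 and CD28 in the presence of IL-4 and an antibody against interferon gamma, then rested. The labels used here give no age, number of animals or pooling. The mice were of 1 inbred strain and the files give read positions alone, so the maternal and paternal copies were not told apart. The Th2 label was not checked against marker genes, because no mm9 positions of such genes were used here.

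Imprinted genes are expressed from the copy inherited from 1 parent and kept silent on the other. In the chromosome 7 domain, H19 is a maternally expressed long noncoding RNA, and its neighbour Igf2 is a paternally expressed fetal growth factor; both are known to fall to low levels in most tissues after birth. Farther along lie Cd81, a tetraspanin of the lymphocyte surface, Kcnq1, a potassium channel, and Cdkn1c, a maternally expressed inhibitor of cyclin-dependent kinases. Kcnq1ot1, a paternally expressed noncoding RNA, starts inside Kcnq1 and silences genes around it. In the chromosome 12 domain, Dlk1, a paternally expressed transmembrane protein, lies beside Meg3, a maternally expressed noncoding RNA followed by a long array of small RNAs. Only H19, Igf2, Dlk1 and Meg3 had an approximate position on mm9, which the choice of the stretches gave as 149.76, 149.84, 110.69 and 110.78 Mb. For the other genes the order alone was used, from a gene table of GRCm38.p6. There, Ins2, Th, Ascl2, Tspan32, Cd81, Tssc4, Trpm5, Kcnq1, Kcnq1ot1 and Cdkn1c follow Igf2 in that order among the better known genes. No single peak was therefore assigned to any of those genes. The same table lists 50 microRNA and 19 snoRNA entries from Dlk1 to Mirg on chromosome 12, against 2 microRNA entries from H19 to Cdkn1c.

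Promoter sequences (300 bases, from 250 before to 50 after the annotated start) are shown for those genes whose place in the domains was given and that had an entry, because the CpG content differs among them. They are RefSeq sequences of GRCm38.p6, 5′ to 3′ along the gene's strand, minus for Igf2 and plus for the other genes, with CpG dinucleotides in capitals. Igf2 has 4 entries and Meg3 has 2, and the entry with the most CpG is printed.
Igf2: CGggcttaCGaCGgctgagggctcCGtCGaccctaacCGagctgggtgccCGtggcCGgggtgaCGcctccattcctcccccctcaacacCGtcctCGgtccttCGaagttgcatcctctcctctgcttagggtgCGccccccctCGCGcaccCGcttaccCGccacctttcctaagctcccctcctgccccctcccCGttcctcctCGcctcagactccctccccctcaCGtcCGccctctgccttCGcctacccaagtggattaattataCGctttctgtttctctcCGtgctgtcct
Cd81: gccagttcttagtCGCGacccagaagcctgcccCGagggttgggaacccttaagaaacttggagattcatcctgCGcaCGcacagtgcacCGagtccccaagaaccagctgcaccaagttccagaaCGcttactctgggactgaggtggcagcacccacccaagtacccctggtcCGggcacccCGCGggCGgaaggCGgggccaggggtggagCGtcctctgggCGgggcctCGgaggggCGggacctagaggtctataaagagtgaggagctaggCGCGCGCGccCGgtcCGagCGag
Dlk1: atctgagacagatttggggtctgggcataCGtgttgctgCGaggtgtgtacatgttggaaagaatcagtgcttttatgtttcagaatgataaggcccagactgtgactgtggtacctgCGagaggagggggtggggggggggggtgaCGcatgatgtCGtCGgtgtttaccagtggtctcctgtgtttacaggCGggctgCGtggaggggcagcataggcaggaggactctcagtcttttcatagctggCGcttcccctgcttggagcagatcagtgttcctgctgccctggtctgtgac
Meg3: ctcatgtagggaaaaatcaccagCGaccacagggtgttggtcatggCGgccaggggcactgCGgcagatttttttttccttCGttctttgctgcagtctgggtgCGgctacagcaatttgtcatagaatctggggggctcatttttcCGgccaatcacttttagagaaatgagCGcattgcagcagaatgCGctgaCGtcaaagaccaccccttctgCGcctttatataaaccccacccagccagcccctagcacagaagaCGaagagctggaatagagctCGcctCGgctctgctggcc
The printed Igf2 promoter has 24 CpG, Cd81 has 23, Meg3 has 13 and Dlk1 has 9, against a median of 7 over 32851 promoters. The other Igf2 entries have 2, 14 and 7 CpG and the other Meg3 entry has 1, so the printed ones are the highest of several. Of 17 listed genes of the domains, 12 were matched, with 16 promoter entries. Ascl2 and Tssc4 also have 23 CpG, Th has 15, Mirg 10, Kcnq1ot1 9, Trpm5 5, Tspan32 2 and Rian 0. Entries with at least 20 CpG were 4 of 16, and 26.5% of all promoters reach that number. The hexamer TGCCGC, which the imprint-protecting factor ZFP57 is known to bind when methylated, was searched on both strands, where its reverse complement is GCGGCA. It occurred in 2 of the 16 entries, 1 of Igf2 and the printed one of Meg3, against 11.6% of all promoters.

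Averaged over each domain, the H3KAc level did not stand above that of IgG. Levels are distinct read positions per 1000000 in the library (RPM). In the chromosome 7 domain, H3KAc was 0.744 RPM per covered kb (exact Poisson 95% interval 0.732 to 0.757) from 13119 reads. IgG was 0.927 RPM per covered kb (0.882 to 0.974) from 1573 reads. The H3KAc over IgG ratio was 0.803 (exact conditional binomial 95% interval 0.762 to 0.847). In the chromosome 12 domain, H3KAc was 0.599 RPM per covered kb (0.581 to 0.617) from 4165 reads, and IgG was 0.863 (0.794 to 0.936) from 578 reads. The ratio there was 0.694 (0.636 to 0.758). Both libraries were above their mean over all covered bins, which was 0.445 RPM per kb in each. RPM makes these means equal, so the ratio over all covered bins is 1 by construction. A ratio below 1 means a smaller share of the library than in IgG, and is no measure of absolute acetylation. With 1 library per antibody there is no test across samples, and all intervals cover counting error only, not variation between libraries. Reads made by PCR are not independent molecules, so intervals from all deposited reads are also too narrow.

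The low ratio was shared with the surroundings. Stretches of the same length to the left and right of the chromosome 7 domain had ratios of 0.807 (0.769 to 0.847) and 0.880 (0.838 to 0.925). Those beside the chromosome 12 domain had ratios of 0.732 (0.657 to 0.817) and 0.682 (0.624 to 0.746). The interval of each domain overlaps those of both its flanks. In H3KAc, the chromosome 7 domain lay below its flanks, which had 0.883 (0.869 to 0.897) and 0.893 (0.880 to 0.907) RPM per kb. IgG was lower there too, at 0.927 (0.882 to 0.974) against 1.09 (1.05 to 1.15) and 1.01 (0.968 to 1.06). The H3KAc of the chromosome 12 domain lay above its left flank, with 0.462 (0.445 to 0.479), and its interval overlaps that of the right flank, with 0.574 (0.556 to 0.592). Its IgG of 0.863 (0.794 to 0.936) likewise lay above the left flank, with 0.631 (0.569 to 0.698), and near the right, with 0.841 (0.773 to 0.914). Between the domains, H3KAc per covered kb was 1.24 times higher on chromosome 7 (1.20 to 1.29), and IgG 1.07 times higher (0.976 to 1.18).

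At equal H3KAc counts, IgG was higher in these domains than in the genome over part of the range. In bins with 7 to 19 H3KAc reads, IgG was 0.934 RPM per kb (0.869 to 1.001) in the chromosome 7 domain and 1.06 (0.959 to 1.17) in the chromosome 12 domain, against 0.586 (0.585 to 0.587) in all such bins. H3KAc within this class was 0.649, 0.632 and 0.570 RPM per kb, respectively. In bins with 20 to 45 reads, IgG was 1.69 (1.57 to 1.83) on chromosome 7 and 1.43 (1.20 to 1.70) on chromosome 12, against 1.41 (1.41 to 1.42) in all. In bins with up to 6 reads, the intervals of both domains contain the 0.173 of all bins, at 0.140 (0.107 to 0.180) and 0.200 (0.144 to 0.271). In bins with 46 or more reads, IgG was 2.17 (1.69 to 2.74) on chromosome 7 and 3.16 (1.63 to 5.52) on chromosome 12. Both intervals contain the 2.13 of all such bins. The difference was thus clear of counting error in both domains for bins with 7 to 19 reads, which are 49.4% of the covered bins of the chromosome 7 domain and 54.7% of those on chromosome 12. For bins with 20 to 45 reads it was clear on chromosome 7 alone. A test of the difference between the domains was not run. The flanks were not grouped by H3KAc count. The higher IgG is therefore not shown to be particular to the domains.

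**Figure D1:**
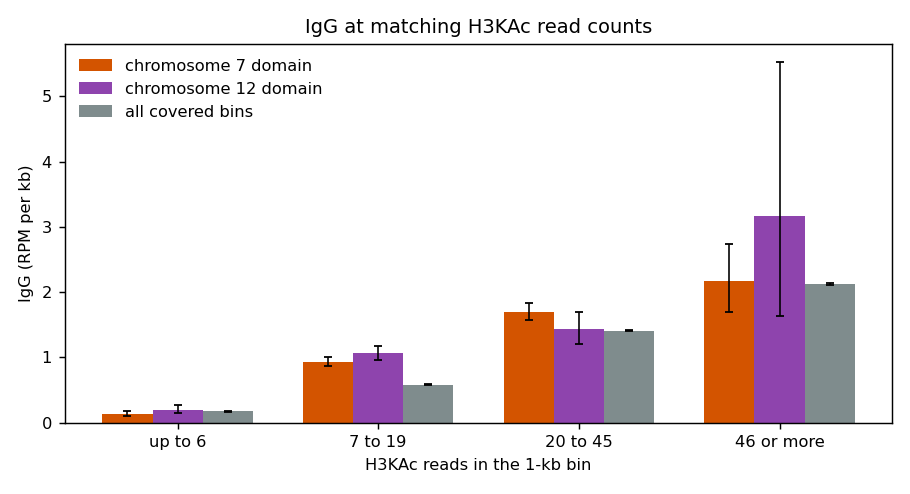
IgG level (RPM per kb) of 1-kb bins grouped by their number of H3KAc reads, in the chromosome 7 domain, the chromosome 12 domain and all covered bins; error bars are exact Poisson 95% intervals of the pooled reads. In bins with 7 to 19 H3KAc reads the domains reach 0.934 and 1.06 against 0.586 in all bins.

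Peaks of H3KAc were confined to few bins. A bin was called high when its H3KAc count was among the top 1% of all covered bins, which meant at least 46 reads. With ties this was 1.02% of all covered bins. In the chromosome 7 domain 17 of 894 covered bins (1.90%) were high, and in the chromosome 12 domain 2 of 353 (0.567%). The flanks of the chromosome 7 domain held 16 high bins each (1.80% and 1.74% of their covered bins), and chromosome 7 as a whole 1.45%. Those of the chromosome 12 domain held 2 (0.635%) and 0, and chromosome 12 as a whole 0.812%. The share of the chromosome 7 domain, above that of the genome, was thus close to that of its surroundings, and the share on chromosome 12 rests on 2 bins. Joining high bins that touched or had 1 bin between them gave 8 peaks on chromosome 7 and 2 on chromosome 12, numbered 1 to 10 along the chromosomes. The 17 high bins of chromosome 7 held 10.8% of the domain's H3KAc reads and 4.45% of its IgG reads. Their pooled ratio was 1.94 (1.53 to 2.50), next to 1.93 (1.92 to 1.94) over all high bins of the genome. They were picked for their H3KAc count, which raises such ratios. The other covered bins of the domain had 0.750 (0.711 to 0.792), against 0.952 (0.951 to 0.954) in the genome.

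**Figure D2:**
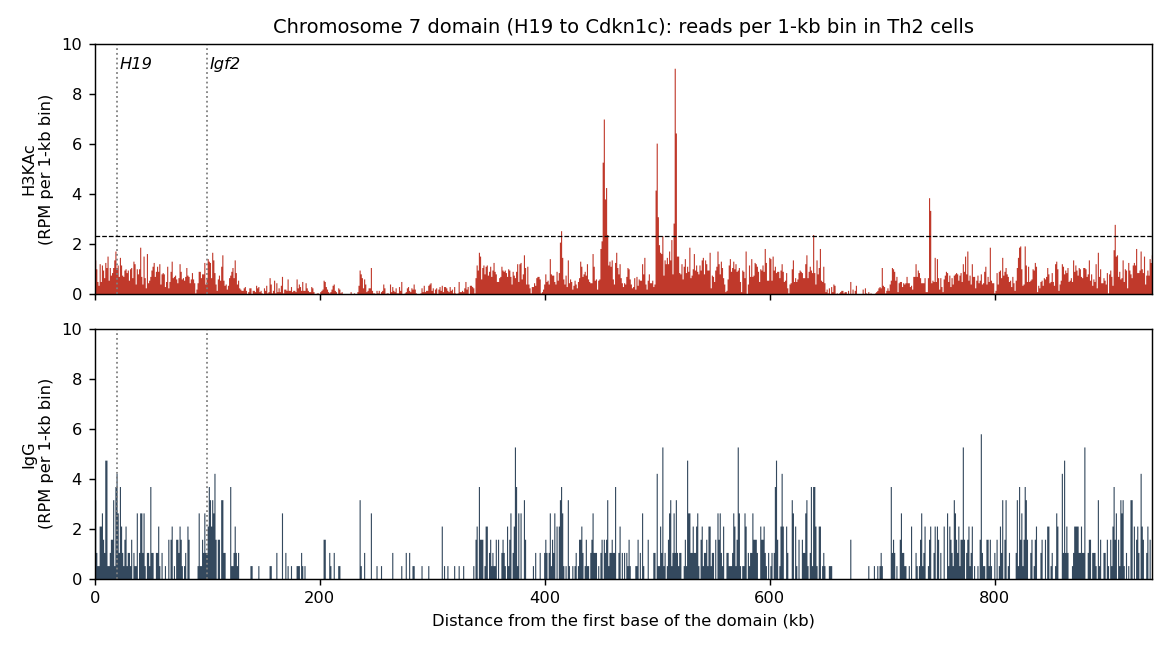
H3KAc (top) and IgG (bottom) in RPM per 1-kb bin along the 940 kb of the chromosome 7 domain, as distance from its first base in kb; dotted lines mark the approximate positions of H19 and Igf2 and the dashed line the count of 46 reads that defines a high bin. The highest bins of peaks 5, 2 and 3, in the middle of the domain, reach 9.03, 7.00 and 6.04 RPM, while IgG has no bin above 5.80 RPM.

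The H19 and Igf2 end of the chromosome 7 domain held no high bin. In the 20 kb centred on the H19 position, from 149750001 to 149770000, H3KAc had 411 reads or 20.9 RPM (18.9 to 23.0), and IgG had 72 reads or 37.9 RPM (29.7 to 47.8). The ratio was 0.550 (0.427 to 0.716). The bin with the most H3KAc reads there, from 149758001 to 149759000, had 34 H3KAc and 7 IgG reads. Around the Igf2 position, from 149830001 to 149850000, H3KAc had 332 reads or 16.8 RPM (15.1 to 18.8) and IgG 68 reads or 35.8 RPM (27.8 to 45.4), a ratio of 0.470 (0.361 to 0.620). Its highest bin had 33 H3KAc and 6 IgG reads. In both windows IgG exceeded H3KAc in RPM, and H3KAc over the 20 bins ran from 11 to 34 reads around H19 and from 3 to 33 around Igf2.

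Beyond Igf2 both libraries dropped together. Over 200 kb from 149880001 to 150080000, every 20-kb window had less H3KAc per covered kb than the mean of all covered bins. This stretch had 0.241 RPM per covered kb in H3KAc and 0.239 in IgG, from 817 and 78 reads, and a ratio of 1.01 (0.799 to 1.29). In it 28 of the 200 bins were empty. A second stretch of this kind, 40 kb from 150400001 to 150440000, had 0.197 RPM per covered kb in H3KAc and 0.211 in IgG, with 15 empty bins. Over the remaining 35 windows of the domain, H3KAc was 0.888 and IgG 1.12 RPM per covered kb. Across the 47 windows of the domain the levels of both libraries went together (Pearson r = 0.746, Spearman rho = 0.824). The windows share the same genome sequence and mappability, so the correlation is a description. How far mappability or base composition sets these levels was not tested.

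Only 3 peaks of the chromosome 7 domain had a ratio clear of 1 on the upper side, and they lay within 66 kb in its middle, with summits 352, 399 and 416 kb to the right of the approximate Igf2 position. Their 11 bins, 1.17% of the domain, held 8.16% of its H3KAc reads and 2.29% of its IgG reads. These peaks were picked for their H3KAc count, which raises their ratios and their folds over the 10 kb on either side. The ratio interval of each contains the 1.93 of all high bins of the genome. Peak 2 was the widest, 5 kb from 150191001 to 150196000. Its bins held, from left to right, 104, 138, 75, 84 and 47 H3KAc reads, and 0, 3, 2, 3 and 6 IgG reads. In total H3KAc reached 22.7 RPM (20.7 to 24.9) against 7.38 RPM for IgG, and the ratio was 3.08 (1.82 to 5.68). Its H3KAc level of 4.55 RPM per kb was 4.44 times that of the 10 kb on either side. IgG was 1.48 RPM per kb in the peak and 1.08 beside it. H3KAc counts were high in all 5 bins and highest in the first pair. Only that pair had a lower bound of the ratio above 1, with 4.43 (1.48 to 21.7) in the second bin, and the fifth bin had 0.754 (0.322 to 2.16).

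Peak 3, from 150238001 to 150241000, had 82, 119 and 61 H3KAc reads in its 3 bins, and 0, 8 and 1 IgG reads. It had 13.3 RPM (11.7 to 15.0) in H3KAc and a ratio of 2.80 (1.45 to 6.20), which became 1.67 with a lower bound of 0.683 when H3KAc was thinned to the IgG number. The 2 bins to its left held 6 and 8 H3KAc reads and the 2 bins to its right 39 and 33. The left edge of this peak was therefore sharp, and the signal trailed to the right. Of its 9 IgG reads, 8 fell in the central bin, close to the H3KAc summit.

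Peak 5, from 150254001 to 150257000, held the highest bin of either domain. Its bins had 56, 178 and 127 H3KAc reads and 5, 2 and 6 IgG reads. The central bin, with 9.03 RPM (7.75 to 10.5), was among the 502 covered bins of the genome with at least that many reads. The whole peak had 18.3 RPM (16.5 to 20.3) and a ratio of 2.67 (1.54 to 5.07). Its H3KAc per kb was 4.78 times that of the 10 kb on either side. IgG was 2.28 RPM per kb in the peak and 1.37 beside it. With plus-strand reads alone the ratio was 1.70 (0.874 to 3.79), not clear of 1, and with minus-strand reads alone it was 4.88 (1.88 to 18.1). The summits of peaks 2 and 3 were 47.0 kb apart. Between peaks 3 and 5 lay peak 4, a single bin with 46 H3KAc reads, the smallest count that is called high. It also held 10 IgG reads, and its ratio was 0.443 (0.220 to 0.984), with an upper bound just below 1. The ratio was not clear of 1 with all deposited reads, where it was 0.621 (0.380 to 1.03). Nor was it clear of 1 with plus-strand, minus-strand or thinned reads, where the upper bounds were 1.46, 1.52 and 1.61.

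In peaks 2 and 3 the H3KAc counts of both strands were alike, and peak 5 had more on the minus strand. The ratios had fewer IgG reads behind them on each strand. H3KAc reads on the plus and minus strand were 222 and 226 in peak 2, 130 and 132 in peak 3, and 162 and 199 in peak 5. Over the 940 bins of the domain, the counts of both strands had a Pearson r of 0.852, given as a description because the strands come from 1 library. Around the summits, the 300-bp running count of H3KAc stayed at or above 0.5 of its maximum for 1100 bp in peak 2, 700 bp in peak 3 and 800 bp in peak 5.

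**Figure D3:**
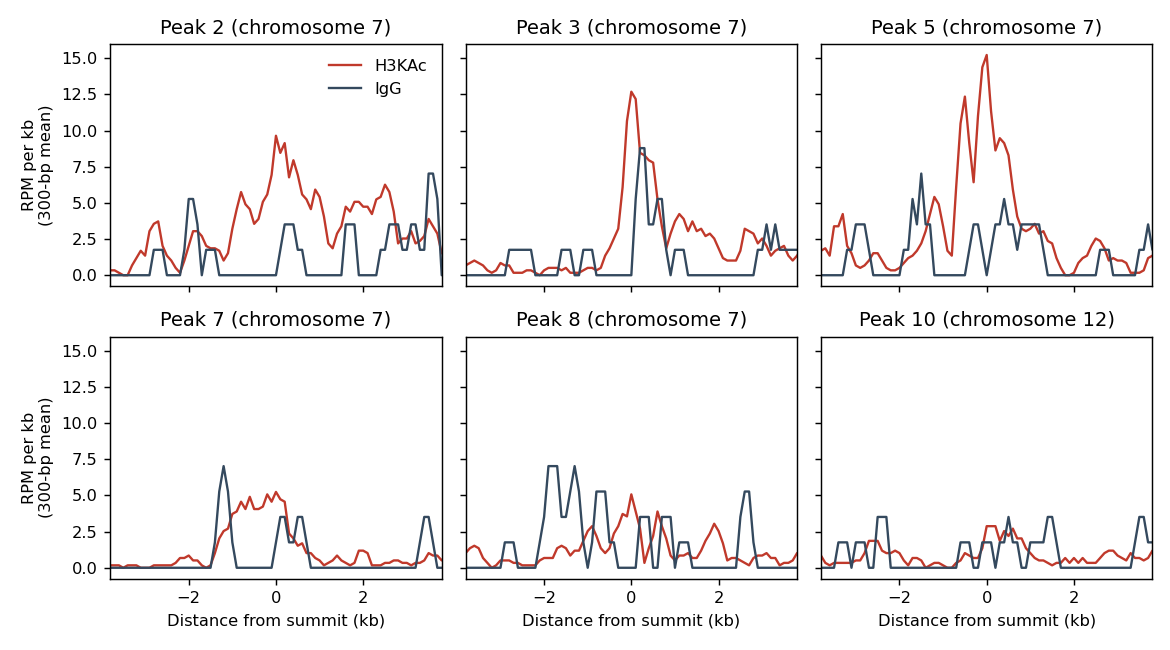
H3KAc and IgG in RPM per kb, as running means over 300 bp, against the distance in kb from the H3KAc summit of peaks 2, 3, 5, 7 and 8 of the chromosome 7 domain and peak 10 of the chromosome 12 domain. Peaks 2, 3 and 5 rise above IgG at their summits. The IgG line moves in large steps because 1 read counts 0.527 RPM, and peaks 7, 8 and 10 lie within the range of the IgG line.

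Smaller peaks lay on both sides of these. Peak 7, 2 kb from 150481001 to 150483000, had 76 and 66 H3KAc reads and 3 and 4 IgG reads in its bins, 7.20 RPM (6.07 to 8.49) in all. Its ratio of 1.95 (0.924 to 4.95) was not clear of 1, and with all deposited reads it was 1.09 (0.796 to 1.53). Its H3KAc per kb was 5.94 times that of the 10 kb on either side, the highest such fold of the 10 peaks. Picking peaks for their H3KAc count raises such folds. IgG was also higher in the peak, at 1.84 RPM per kb from 7 reads, against 0.843 beside it. The bins just outside held 13 H3KAc reads on the left and 9 on the right. Plus and minus strand contributed 73 and 69 of its H3KAc reads. It was the only peak of more than 1 kb to the right of peak 5. Peak 8, the bin from 150646001 to 150647000 near the Cdkn1c end of the stretch, had 55 H3KAc and 3 IgG reads, or 2.79 RPM (2.10 to 3.63), and a ratio of 1.77 (0.573 to 8.82), which was 1.06 with unmoved reads and 0.882 with minus-strand reads alone. Peaks 1 and 6 were single bins, from 150154001 and from 150378001, with 50 and 47 H3KAc reads and 7 IgG reads each. Their ratios, 0.688 (0.310 to 1.80) and 0.646 (0.290 to 1.70), were likewise not clear of 1. With all deposited reads, in which each copy of a position counts, the ratio of peak 6 was 0.356 (0.234 to 0.542). This lies below 1, but the interval treats copies as independent reads and is too narrow. The ratio of peak 1 was 1.14 (0.362 to 3.70) with thinned H3KAc.

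The chromosome 12 domain had no peak with a ratio clear of 1 on the upper side. Its highest bin, peak 9 from 110670001 to 110671000, had 61 H3KAc and 9 IgG reads, a ratio of 0.653 (0.322 to 1.49). Counting every copy of a position gave 0.340 (0.245 to 0.473). This lies below 1, but the interval treats copies as independent reads and is too narrow. Peak 10, from 110691001 to 110692000, had 47 H3KAc and 3 IgG reads, a ratio of 1.51 (0.486 to 7.58), which was 2.36 (0.387 to 97.0) with plus-strand reads alone. Its summit was 1.05 kb from the approximate Dlk1 position, and the bins on both sides of it held 10 H3KAc reads each. In the 20 kb centred on the Dlk1 position, H3KAc had 426 reads or 21.6 RPM (19.6 to 23.8) and IgG 40 reads or 21.1 RPM (15.1 to 28.7), a ratio of 1.03 (0.741 to 1.46). In the 20 kb around the Meg3 position, H3KAc had 271 reads or 13.7 RPM (12.2 to 15.5) and IgG 67 reads or 35.3 RPM (27.4 to 44.8). The ratio there, 0.389 (0.297 to 0.517), was the lowest of the 4 gene positions, and its interval lies below that of Dlk1. The intervals of H19, Igf2 and Meg3 overlap. The bin with the most IgG reads of the chromosome 12 domain lay in the Meg3 window, from 110787001 to 110788000, with 10 IgG and 26 H3KAc reads. On chromosome 7 that bin, from 150527001 to 150528000, had 11 IgG and 16 H3KAc reads.

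**Figure D4:**
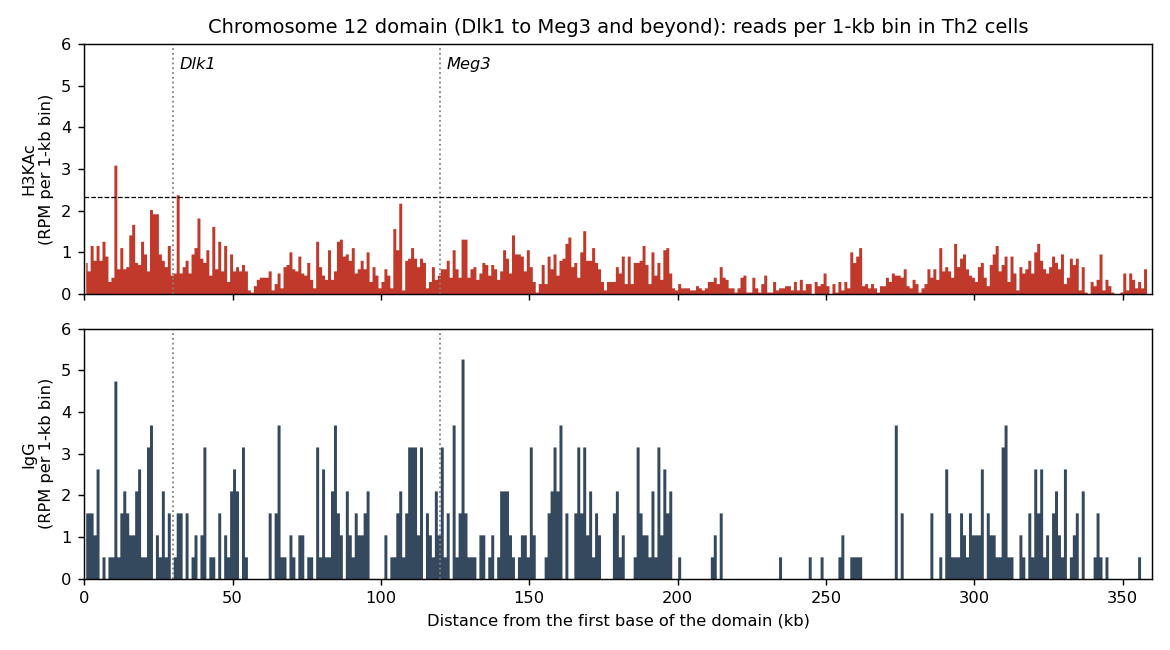
H3KAc (top) and IgG (bottom) in RPM per 1-kb bin along the 360 kb of the chromosome 12 domain, as distance from its first base in kb; dotted lines mark the approximate positions of Dlk1 and Meg3 and the dashed line the count of 46 reads that defines a high bin. Only 2 bins reach that line, at 3.09 and 2.38 RPM, and both libraries are low over the 80 kb that start 200 kb into the domain.

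To the right of Meg3, H3KAc was even over 80 kb and then dropped. The 4 windows from 110780001 to 110860000 had 262, 277, 290 and 253 H3KAc reads and 45, 47, 47 and 43 IgG reads. Their ratios lay between 0.561 and 0.594. Over the next 80 kb, from 110860001 to 110940000, H3KAc was 0.275 and IgG 0.182 RPM per covered kb, from 423 and 27 reads, a ratio of 1.51 (1.02 to 2.32). IgG thus fell further than H3KAc in this stretch, which turned the ratio from below 1 to above it at a low level of both. Over the 18 windows of the domain, H3KAc and IgG went together, with r = 0.872 and rho = 0.881, as on chromosome 7.

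Few bins passed a ratio threshold. Bins whose 2 libraries summed to 5 reads or more were tested, and those with a lower bound of the ratio above 2 count here as enriched. This held for 0.0836% of the bins tested in the genome, for 3 of 743 (0.404%) on chromosome 7 and for 0 of 288 on chromosome 12. With reads of 1 strand or with 500-bp bins, no bin of either domain passed. The 3 bins were 1 in each of peaks 2, 3 and 5. They started at 150191001, with 104 H3KAc reads and no IgG read, at 150238001, with 82 and none, and at 150255001, with 178 and 2. In the first pair H3KAc was at least 2.67-fold and at least 2.09-fold higher than IgG, as lower bounds of the 95% interval, and in the last the ratio was 8.57 (2.34 to 71.3). A lower bound above 1 held for 5 bins of chromosome 7 (0.673%) and for none of chromosome 12, against 0.651% of bins tested in the genome, so the chromosome 7 share was near the background. The added pair lay in peaks 2 and 3. When the IgG of each bin was replaced by that of 11 bins around it, 10 bins of chromosome 7 and 1 of chromosome 12 were called, against 1.35% of covered bins. On chromosome 7 these 10 bins were 4 of peak 2 and 2 each of peaks 3, 5 and 7. That of chromosome 12, from 110882001 to 110883000, held 9 H3KAc reads, in the stretch of low IgG.

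Windows of 20 kb hold more IgG reads than single bins. The interval of the ratio lay above 1 in 2 of 47 windows on chromosome 7 and in 1 of 18 on chromosome 12, against 8.43% of windows in the genome. Those of chromosome 7 were the window from 150180001 to 150200000, which holds peak 2, with a ratio of 1.63 (1.20 to 2.27), and the window from 150240001 to 150260000, which holds the end of peak 3 and peaks 4 and 5, with 1.50 (1.15 to 2.00). The window from 150220001 to 150240000, which holds the other bins of peak 3, had 1.41 (0.963 to 2.15) and was not clear of 1. The window of chromosome 12, from 110880001 to 110900000, had the highest ratio of its domain, 7.70 (1.34 to 308), from 80 H3KAc reads and a single IgG read. Its H3KAc level of 0.203 RPM per covered kb was among the lowest, so this call rests on the IgG count. The highest ratio of a chromosome 7 window, 2.76 (0.913 to 13.6), was likewise from a window of low counts, from 149880001 to 149900000, with 86 H3KAc and 3 IgG reads.

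The interval lay below 1 in 12 of 47 windows on chromosome 7 and in 9 of 18 on chromosome 12, against 8.18% in the genome. The domains held 1.76 (chromosome 7) and 1.64 (chromosome 12) IgG reads per covered kb, against 0.845 over all covered bins. More reads narrow the intervals, so windows there are called more easily. The flanks, whose ratios were also low, had no window count of their own here. The lowest ratio of chromosome 7, 0.475 (0.363 to 0.631), came from the window beginning at the Igf2 position, from 149840001 to 149860000. That of chromosome 12, 0.512 (0.381 to 0.701), came from the window that ends at the Meg3 position, from 110760001 to 110780000. Below-1 windows had 182 to 421 H3KAc reads on chromosome 7, so none lay in the stretches where both libraries were low.

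**Figure D5:**
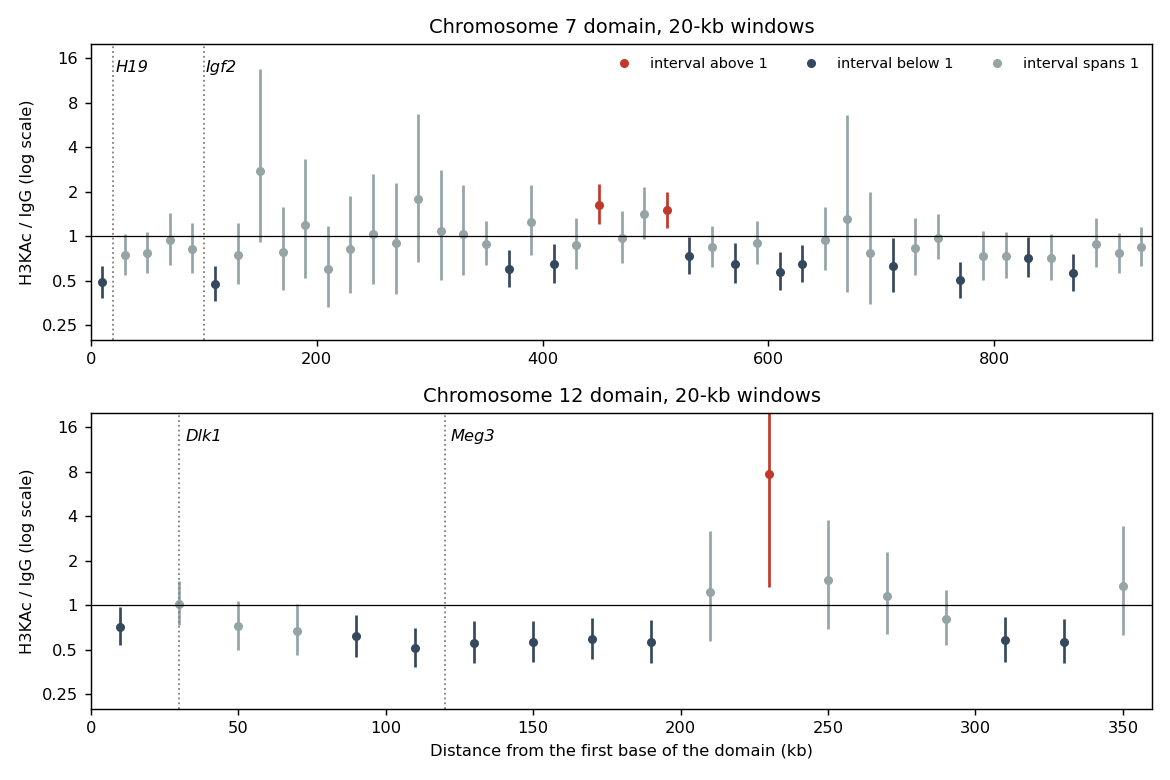
H3KAc over IgG ratio (log scale) of 20-kb windows along both domains, against the distance in kb from the domain's first base; points are ratios, bars their exact conditional binomial 95% intervals, drawn up to 20, and colours show whether the interval lies above 1, below 1 or across it. On chromosome 7, 2 windows in the middle lie above 1 and 12 below, and on chromosome 12 the 9 windows below 1 include the 6 from 110740001 to 110860000.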

How the data were processed

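ChIP-seq reads of 1 H3KAc and 1 IgG library from mouse Th2 cells were analysed. The deposited files list each aligned read of 35 bases in a row with chromosome, start, end and strand, and no normalized value. Reads were aligned with Bowtie to mm9, per the submitters' processing notes. No source used here gives the Bowtie version or the treatment of reads with several alignments.

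Each distinct chromosome, 5' end and strand was counted 1 time, moved 100 bp along its strand and placed in a 1-kb bin. This left 19711169 positions of 21845451 H3KAc reads and 1897666 of 7626703 IgG reads. In the domains an IgG position was read 4.01 times (chromosome 7) and 4.23 times (chromosome 12) on average and an H3KAc position 1.10 times on both. 1 read is 0.0507 RPM in H3KAc and 0.527 RPM in IgG, so IgG sets the precision of ratios. Ratios have exact conditional binomial (Clopper-Pearson) and levels exact Poisson 95% intervals. There was 1 library per group, so no p-value was computed.

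Named were up to 10 peaks on chromosome 7 and up to 5 on chromosome 12 by H3KAc reads in the highest bin, the 4 gene positions, every enriched bin, and in each domain the windows of extreme ratio and the bin with the most IgG reads. The domains and the gene list were chosen with earlier results of these data known. Alternatives were all deposited reads, unmoved reads, 1 strand, other IgG scaling, thinned H3KAc and other bin sizes and thresholds. Computing used numpy 2.4.6, pandas 2.3.3 and scipy 1.17.1 under Python 3.11.15, and plots used matplotlib 3.10.9.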

Additional observations from a re-analysis of the deposited data

How the results depend on the processing

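The ratios of both domains, the 4 gene positions and the pooled peaks stayed within their intervals under each alternative run on them (all deposited reads, unmoved reads, 1 strand, IgG scaled by background bins of 10 kb, H3KAc thinned to the IgG number). Within its interval, the pooled ratio of the 2 chromosome 12 peaks moved most, from 0.866 to 0.483 (0.367 to 0.636) with all reads. Its main interval of 0.476 to 1.73 spans 1, while that from all reads lies below 1. The latter treats copies as independent reads and is too narrow. The chromosome 7 H3KAc level did leave its interval of 0.732 to 0.757 RPM per covered kb. It was 0.721 (0.703 to 0.739) on the plus strand and 0.769 (0.750 to 0.787) on the minus strand. High bins on chromosome 7 became 9 with the top 0.5%, 38 with the top 2% and 30 with 500-bp bins, and on chromosome 12 they became 0, 7 and 5. Enriched bins on chromosome 7 became 33 with all deposited reads, 0 with plus-strand, 0 with minus-strand reads and 0 with 500-bp bins, 5 with a lower bound above 1 and 10 with IgG over 11 bins. On chromosome 12 they became 4 with all reads and 1 with IgG over 11 bins. Windows above 1 became 8 (chromosome 7) and 2 (chromosome 12) with all reads and 1 and 0 with plus-strand reads. Windows below 1 on chromosome 7 became 20 with all reads and 5 with minus-strand reads, and on chromosome 12 they became 4 with minus-strand reads. For calls against IgG with all deposited reads, 1 strand or 500-bp bins, shares over the genome are not given here. Those counts are therefore not set against a background. Counting all reads enters copies of 1 position as independent, and 1 strand leaves fewer reads; other causes were not tested. Of the 10 single peaks, 3 had a lower bound above 1 with unmoved reads, other IgG scaling, all reads or minus-strand reads, and 2 with plus-strand or thinned reads. An upper bound below 1 held for peak 4 as reported, with unmoved reads and with other IgG scaling, for peaks 6 and 9 with all reads, and for no peak with 1 strand or thinned reads. Peak 8 had no plus-strand IgG read and so no ratio there. No paired analysis was possible because each group has 1 library. The depth of IgG limits every ratio of a single bin.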
